A study of Mus musculus with 64 samples.

Results

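White adipose tissue (WAT) and skeletal muscle of wild-type mice kept on chow were compared through 8 of the 64 RNA sequencing libraries of the series, 4 per tissue, chosen by their labels for tissue, genotype and diet. The mice were male C57BL/6J animals labelled CTRL, the wild-type controls of the series, fed standard chow until death at 16 weeks of age. Neither the WAT depot nor the muscle is named in the labels. The wider series also holds liver and heart, Pklr-/- mice and a high-sucrose diet (HSD) given from 8 weeks of age for 8 weeks. The 4 WAT and 4 muscle libraries from CTRL mice on HSD are used at the end as a separate reading of the same tissue difference. Pklr, the gene deleted elsewhere in the series, was near 0 in both tissues, with 0.811, 0, 0.0516 and 0.0652 TPM (transcript abundance per length, scaled to the library) in WAT and 0, 0.107, 0.0573 and 0 TPM in muscle.

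Both tissues take up glucose in response to insulin through the transporter GLUT4. Muscle stores the glucose as glycogen or breaks it down to power contraction, and oxidises fatty acids in its many mitochondria. White adipocytes turn glucose carbon into glycerol phosphate and fatty acids, hold them as triglyceride in 1 large lipid droplet, release them in fasting, and secrete hormones such as leptin and adiponectin; around them lie vessels, fibroblast-like progenitors and resident immune cells.

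Estimated counts summed to between 8288047 and 11927003 per WAT library and between 6669444 and 11221191 per muscle library. Mitochondrially encoded transcripts took 7.56% to 8.27% of the counts in WAT and 25.2% to 28.0% in muscle, and sarcomere genes took 0.0508% to 0.0584% of the TPM in WAT and 11.5% to 12.9% in muscle. This unequal composition makes the direction of moderate differences depend on the scaling. With TMM factors, which centre the bulk of genes, the median log2 fold change (WAT over muscle) over all 12871 genes tested was 0.095; with library totals alone it was 1.09, and for the ratio of mean TPM it was 1.47. With TMM, edgeR's quasi-likelihood test called 9793 genes (76.1% of those tested) at an adjusted p under 0.05, 5142 (40.0%) of them higher in WAT and 4651 (36.1%) lower. The share of calls that were higher was 52.5%, against 79.5% with library totals and 86.1% with limma on log2(TPM + 1). Of these calls, 4804 higher and 1464 lower ones were made under all 3 scalings. With a change of at least 4-fold added to the rule, 1946 genes (15.1%) were higher and 1422 (11%) lower, and 1733 and 1279 of these held under all 3. "Called" means past this test with TMM and Benjamini-Hochberg adjustment. Fold changes are log2 values of WAT over muscle with their standard errors (SE), and levels are TPM, which are per length. The p-values measure the spread between libraries, 4 mice per group by the labels, and in bulk tissue fewer cells of a type and less RNA per cell cannot be told apart.

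All 13 white adipocyte markers tested were called higher in WAT, with a median log2 fold change of 6.94. Of 32 sarcomere genes 31 were tested and all 31 were called lower, with a median of -12.74. Each of these calls passed 4-fold and held under all 3 scalings. Adiponectin (Adipoq) stood at 5661, 4386, 4180 and 4470 TPM in WAT, against 15.6, 13.2, 11.9 and 14.8 TPM in muscle, a log2 fold change of 6.94 ± 0.19 (adjusted p 2.07e-11). The fast troponin T gene Tnnt3 had 2.15, 2.24, 1.79 and 2.22 TPM in WAT, against 10571, 9129, 8332 and 9218 TPM in muscle (-13.62 ± 0.23, adjusted p 2.67e-12). The groups did not overlap for either, as was so for 82.0% of all genes tested, and neither marker was at 0 in the other tissue. Mean muscle levels were 0.297% of the WAT mean for Adipoq, 0.235% for perilipin 1 (Plin1) and 0.169% for Cidec, which enlarges lipid droplets, but 2.25% for Fabp4 and 5.27% for carbonic anhydrase 3 (Car3). Mean WAT levels were 0.0107% of the muscle mean for the muscle creatine kinase Ckm and 0.0226% for Tnnt3, but 0.349% for skeletal actin (Acta1), 2.88% for the myosin light chain Myl1 and 3.03% for tropomyosin 3 (Tpm3). Acta1 reached 67.7, 76.2, 18.5 and 24.8 TPM in WAT, and Myl1 93.2, 100, 118 and 121 TPM, while Ckm did not exceed 0.348 TPM there. The trace of each tissue's markers in the other tissue thus differed from marker to marker.

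Among genes of at least 100 TPM in the higher tissue, those with the largest fold changes towards WAT were named by rule. Adrb3, the adipocyte adrenergic receptor that starts lipolysis, had 389, 203, 435 and 488 TPM in WAT, against 0.166, 0.0708, 0.268 and 0.313 TPM in muscle (9.53 ± 0.42, adjusted p 3.56e-09). Next came the amino acid transporter Slc7a10 (8.43 ± 0.42), Cidec (7.61 ± 0.21), leptin (Lep, 7.41 ± 0.25), Plin1 (7.22 ± 0.22), the aldehyde dehydrogenase Aldh1a7 (7.19 ± 0.39), resistin (Retn, 7.16 ± 0.28), the adipocyte galectin Lgals12 (7.04 ± 0.20), the glyceroneogenic enzyme Pck1 (7.04 ± 0.18) and the protein kinase A subunit Prkar2b (7.01 ± 0.18). Towards muscle, Tnni1, Ckm, Mybpc1, Ankrd2, Art1, Ppp1r27, Myh7, Myl3, Myot and Tnnt3 led. Ckm had 0.338, 0.348, 0 and 0.200 TPM in WAT, against 1882, 1582, 2684 and 2115 TPM in muscle (-14.71 ± 0.36, adjusted p 1e-11). Mybpc1, a thick-filament protein, gave -14.23 ± 0.33, the slow myosin Myh7 -13.77 ± 0.29, the slow myosin light chain Myl3 -13.74 ± 0.27 and the Z-disc protein Myot -13.70 ± 0.31. Art1, an ADP-ribosyltransferase of muscle, was at 0 in all 4 WAT libraries against 126, 126, 128 and 112 TPM in muscle, at least 3800-fold lower when set against a floor of 3 counts over the group. The slow troponin I gene Tnni1 had 0.175, 0, 0.156 and 0 TPM in WAT, against 1979, 1691, 1795 and 1580 TPM in muscle.

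Promoter windows of genes that mark the tissues are printed here because members of each list moved together. They run from 250 bases before to 50 after the start (RefSeq, GRCm38.p6), on the gene's strand, in lower case. Matches of the motifs named next, other than the E-box, are in capitals. The motifs searched on both strands were the MEF2 site and the CArG box (each by name, bound by MEF2 factors and by serum response factor), the TATA box TATAAA and a C/EBP-type site TTGCNNAA; a TATAAA can lie inside a MEF2 site.
Acta1, chr8:123894726-123895025, minus strand, with a CArG box and a TATA box: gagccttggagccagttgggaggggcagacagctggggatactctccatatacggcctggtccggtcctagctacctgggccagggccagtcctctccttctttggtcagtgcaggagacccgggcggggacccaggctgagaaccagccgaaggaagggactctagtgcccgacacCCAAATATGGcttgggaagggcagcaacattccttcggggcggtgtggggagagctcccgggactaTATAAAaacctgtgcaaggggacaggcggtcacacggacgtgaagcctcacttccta
Myl3, chr9:110763428-110763727, plus strand, with a CArG box: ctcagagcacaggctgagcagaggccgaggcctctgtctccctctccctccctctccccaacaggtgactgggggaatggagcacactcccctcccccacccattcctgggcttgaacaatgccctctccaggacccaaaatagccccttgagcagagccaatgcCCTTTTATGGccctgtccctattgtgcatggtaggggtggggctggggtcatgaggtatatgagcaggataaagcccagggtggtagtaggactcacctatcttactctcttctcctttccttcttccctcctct
Plin1, chr7:79732727-79733026, minus strand, with 2 C/EBP-type sites: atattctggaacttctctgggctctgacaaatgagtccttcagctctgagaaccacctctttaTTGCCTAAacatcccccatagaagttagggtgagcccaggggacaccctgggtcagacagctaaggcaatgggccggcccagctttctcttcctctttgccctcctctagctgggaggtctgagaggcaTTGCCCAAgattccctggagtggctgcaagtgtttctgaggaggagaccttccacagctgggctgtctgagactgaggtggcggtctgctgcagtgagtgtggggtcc
Ckb, chr12:111672289-111672588, minus strand, the creatine kinase higher in WAT, with a MEF2 site that overlaps a TATA box: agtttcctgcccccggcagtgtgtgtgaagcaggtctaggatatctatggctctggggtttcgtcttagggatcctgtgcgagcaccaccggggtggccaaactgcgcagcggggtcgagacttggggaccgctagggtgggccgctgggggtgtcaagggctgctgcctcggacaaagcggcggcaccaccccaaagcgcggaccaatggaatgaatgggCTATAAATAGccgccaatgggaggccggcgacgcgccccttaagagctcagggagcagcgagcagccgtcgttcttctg

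A window was found for 25 of the 32 sarcomere genes, 32 windows in all. Of these, 5 (15.6%) held a MEF2 site, in Ttn, Mybpc3, Myoz2, Myh1 and Myh4, and 6 (18.8%) a CArG box, in Actc1, Acta1, Myl3, Myh4 and Ldb3. Over the 12991 windows of all genes tested the shares were 1.93% and 1.35%. C/EBP-type sites lay in 4 (28.6%) of 14 windows of white adipocyte markers, of Lep, Cidec, Pparg and Plin1, against 12.5% of sarcomere windows and 8.73% of all. These are matches of letters, not measured binding, and Ckb shows a MEF2 match in the promoter of a gene that was lower in muscle.

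Muscle expressed a mixed set of myosin heavy chains. Of the summed TPM of Myh7, Myh2, Myh1 and Myh4, the slow Myh7 took 30.9% to 38.0% across the muscle libraries, Myh2 39.0% to 46.5%, Myh1 15.2% to 20.4% and Myh4, the fastest, 0.294% to 4.13%. Myh4 had 87.3, 8.58, 13.2 and 71.5 TPM in muscle, so muscle replicates 1 and 4 lay well above replicates 2 and 3. Myh1, Myh2 and Myh4 are near-identical neighbours, so the split of reads between them is uncertain. All 13 fast and all 12 slow fibre markers were called at least 4-fold lower in WAT, and so were 18 of 20 genes of excitation-contraction coupling, among them the calcium pump Atp2a1 (-13.30 ± 0.29) and calsequestrin 1 (Casq1, -10.96 ± 0.22). Of the calcium pump TPM, Atp2a1 took 0.348% to 1.79% in WAT and 48.2% to 61.2% in muscle, and Atp2a2 took 68.1% to 75.8% in WAT and 38.7% to 51.7% in muscle. Atp2a3, common in blood cells and epithelia, took 22.4% to 31.5% in WAT and at most 0.0894% in muscle. Of 12 myogenic genes, 9 were tested and all were called lower in WAT. Of these, 4 were at 0 in every WAT library, Myf6 and Vgll2 among them. They passed the count filter through muscle alone and could only be lower in WAT. The remaining 3 of the 12 did not pass the filter on low counts.

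**Figure D1:**
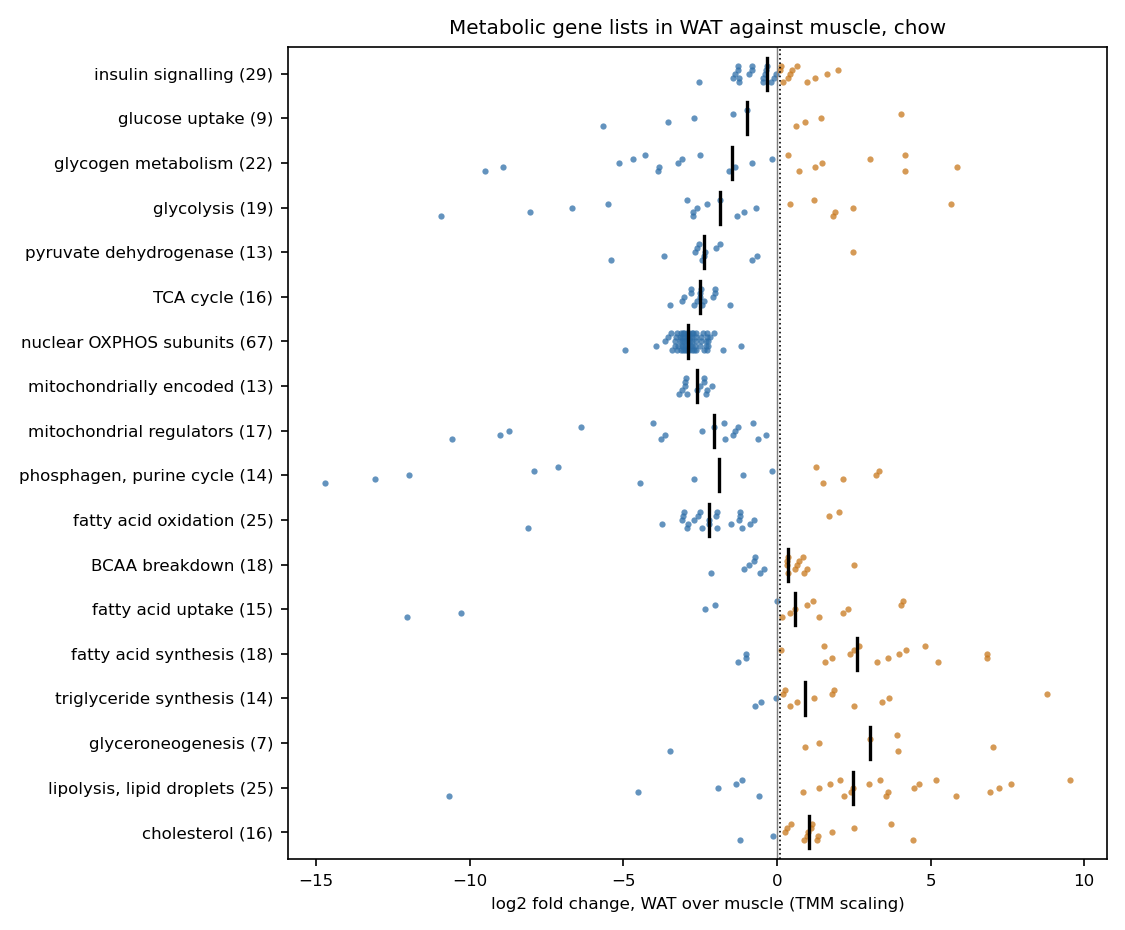
Log2 fold change (WAT over muscle, TMM scaling; x axis) of each tested member of 18 metabolic lists, with the number tested in brackets; orange points are above 0 and blue below, the black bar is the list's median, and the dotted line is the median over all genes, 0.095. TCA cycle, OXPHOS and mitochondrially encoded lists lie wholly left of 0, lipid synthesis and storage lists mostly right of it, and insulin signalling, glycogen and glycolysis lists span both sides.

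For most insulin signalling genes the direction depended on the scaling. Of 29 genes, 6 were called higher in WAT and 14 lower, with a median log2 fold change of -0.32; under all 3 scalings 6 higher and 1 lower remained. The insulin receptor Insr, named after its values were seen, had 43.9, 39.9, 36.6 and 44.3 TPM in WAT, against 10.8, 19.4, 13.9 and 13.7 TPM in muscle, and was not called with TMM (-0.04 ± 0.13, adjusted p 0.803). The kinase Akt2, which relays the signal to glucose uptake, was called lower with TMM (-0.40 ± 0.13, adjusted p 0.0139) although its TPM was higher in every WAT library (174, 153, 188 and 212 against 80.3, 85.0, 92.0 and 86.7 in muscle), and its direction flipped under library totals. The call held under every scaling for Grb14, an adaptor that inhibits the insulin receptor, with 25.4, 20.2, 23.0 and 19.2 TPM in WAT against 56.7, 105, 79.1 and 93.2 TPM in muscle (-2.54 ± 0.17, adjusted p 6.34e-08). In the other direction it held, among others, for the PI3-kinase subunits Pik3r1 (2.0 ± 0.15, adjusted p 1.58e-07) and Pik3cb (1.63 ± 0.34), the transcription factor Foxo1 (0.96 ± 0.15) and the mTORC2 subunit Rictor (0.65 ± 0.16).

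Glucose entry was represented by the same leading genes in both tissues. Of 12 transporters and hexokinases, 9 were tested, 4 called higher and 5 lower in WAT, and 4 and 3 of these held under all 3 scalings. Slc2a4, which encodes GLUT4, had 102, 108, 118 and 110 TPM in WAT, against 235, 263, 280 and 303 TPM in muscle (-2.71 ± 0.12, adjusted p 9.85e-10). It took 96.0% to 98.0% of the summed Slc2a4 and Slc2a1 TPM in WAT and 98.5% to 99.0% in muscle. Hexokinase 2 (Hk2), the insulin-induced form, was also lower in WAT (-3.54 ± 0.15), where Hk1 made up 25.5% to 35.4% of the pair against 1.77% to 3.12% in muscle. Higher in WAT were the neuron-type transporter Slc2a3 (4.05 ± 0.33), Slc2a10 (1.43 ± 0.25), Slc2a8 (0.92 ± 0.23) and Hk1 (0.62 ± 0.16).

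From glycogen to lactate the 2 tissues expressed different isoenzymes of the same steps. Of 22 glycogen genes, 7 were called higher in WAT and 13 lower (median -1.47), 7 and 10 under all 3 scalings. The muscle glycogen phosphorylase Pygm had 2.94, 3.29, 2.66 and 2.35 TPM in WAT, against 491, 490, 531 and 514 TPM in muscle (-8.92 ± 0.18, adjusted p 2.95e-12), while the liver form Pygl (5.85 ± 0.14, adjusted p 1.05e-11) and the brain form Pygb (4.17 ± 0.14) were higher in WAT. Pygm made up 0.710% to 1.07% of phosphorylase TPM in WAT, where Pygl took 42.3% to 49.3% and Pygb 49.6% to 57.0%, but 99.1% to 99.3% in muscle. The kinase subunits that activate phosphorylase swapped in parallel, Phka1 being lower in WAT (-4.30 ± 0.15) and Phka2 higher (3.03 ± 0.19). Glycogen synthase was mainly Gys1 in both, 80.6% to 97.7% in WAT and 99.8% to 100% in muscle. Gys1 was lower in WAT (-3.21 ± 0.17), as were glycogenin (Gyg, -3.88 ± 0.13), which primes the chain, the UDP-glucose enzyme Ugp2 (-4.69 ± 0.17) and the glycogen-targeting phosphatase subunits Ppp1r3a (-9.52 ± 0.27) and Ppp1r3c (-5.14 ± 0.23). The liver form Gys2 varied in WAT, with 1.17, 9.30, 7.04 and 11.7 TPM.

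Of 21 glycolysis genes, 19 were tested, 6 called higher and 12 lower in WAT (median -1.85), 6 and 10 under all 3 scalings. Pgam2, the muscle phosphoglycerate mutase, had 1.39, 1.53, 2 and 1.91 TPM in WAT, against 1403, 1107, 1164 and 1302 TPM in muscle (-10.94 ± 0.22, adjusted p 2.95e-12). Its partner Pgam1 had 149, 152, 178 and 196 TPM in WAT, against 26.1, 30.2, 21.1 and 31.9 TPM in muscle (1.19 ± 0.14, adjusted p 7.98e-06). Neither pair of groups overlapped. The same exchange was seen for phosphofructokinase, with Pfkm lower (-6.67 ± 0.16) and Pfkl (1.82 ± 0.18) and Pfkp (2.48 ± 0.14) higher in WAT, and for enolase, with Eno3 lower (-8.04 ± 0.28) and Eno1 higher (1.88 ± 0.15). For lactate dehydrogenase, Ldha made up 87.1% to 91.6% of its TPM in WAT but 23.7% to 33.9% in muscle, where the heart-type Ldhb led with 1639, 1439, 1203 and 1313 TPM. Ldhb was lower in WAT (-5.51 ± 0.15, adjusted p 2.79e-11); Ldha was called lower with TMM (-1.06 ± 0.16), and its direction flipped with TPM. Steps with 1 main gene in both tissues were lower in WAT, among them aldolase A (Aldoa, -2.92 ± 0.18) and Gapdh (-2.73 ± 0.18). The bifunctional enzyme Pfkfb3, which makes the activator of phosphofructokinase, ran the other way, with 244, 239, 309 and 340 TPM in WAT, against 2.22, 2.26, 2.08 and 1.85 TPM in muscle (5.66 ± 0.17, adjusted p 5.96e-11), and Pfkfb1 was slightly higher (0.41 ± 0.15).

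**Figure D2:**
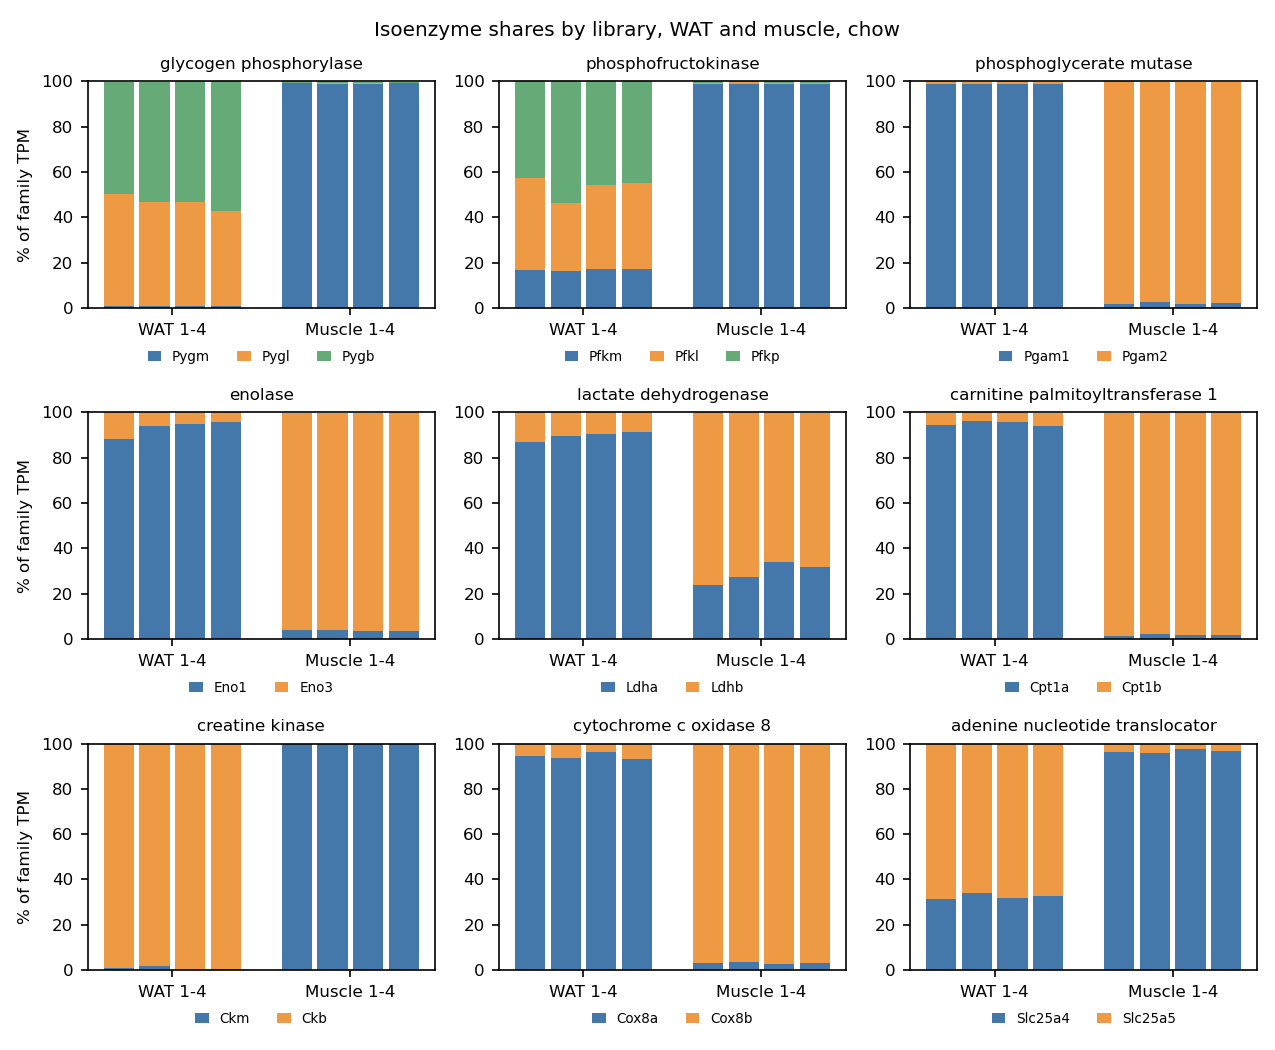
Share of each isoenzyme in its family's summed TPM (percent, y axis) in the 4 WAT libraries (left bars) and the 4 muscle libraries (right bars) for 9 families. The leading gene differs between the tissues in every family drawn: Pygm took at most 1.07% of glycogen phosphorylase in WAT and at least 99.1% in muscle.

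Of 13 genes for pyruvate entry into mitochondria, 12 were called lower in WAT and 1 higher, with a median log2 fold change of -2.37. They include the pyruvate dehydrogenase complex and kinases that inhibit it, so the count gives no direction for pyruvate entry itself. The E1 subunits Pdha1 (-2.66 ± 0.14) and Pdhb (-2.55 ± 0.16) and the mitochondrial pyruvate carrier Mpc1 (-1.99 ± 0.14) were all called lower. The complex's inhibitory kinases differed most: Pdk4, the fasting- and fatty-acid-induced form, had 79.9, 69.3, 36.3 and 64.5 TPM in WAT, against 1074, 1126, 775 and 877 TPM in muscle (-5.40 ± 0.27, adjusted p 4.16e-09). Pdk4 made up 28.0% to 42.9% of the kinase TPM in WAT, where Pdk2 took 43.9% to 58.2%, and 77.7% to 82.4% in muscle. Pdk1 (-3.67 ± 0.12) and Pdk2 (-2.59 ± 0.19) were lower in WAT as well, and Pdk3, a minor form in both, was the member that was higher (2.46 ± 0.24).

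The listed genes of the oxidative machinery were lower in WAT, whereas some general isoforms outside the lists, given below, were higher. All 16 TCA cycle genes, 15 of them by at least 4-fold (median -2.51), all 67 nuclear-encoded OXPHOS subunits, 65 of them by at least 4-fold (median -2.89), and all 13 mitochondrially encoded subunits (median -2.60) were called lower, and 15, 65 and 13 of them under all 3 scalings. The log2 fold changes of the OXPHOS members lay between -4.96 and -1.18. The ATP synthase subunit Atp5b had 1092, 1091, 1212 and 1248 TPM in WAT, against 2159, 2203, 2049 and 2118 TPM in muscle (-2.32 ± 0.12, adjusted p 4.83e-09), and complex I's Ndufs1 had 76.7, 93.9, 101 and 89.4 TPM in WAT, against 296, 335, 288 and 327 TPM in muscle (-3.28 ± 0.13, adjusted p 3.95e-10). Neither gene's groups overlapped. Atp5g1, 1 of 3 genes for the ATP synthase c subunit, was at the low end (-4.96 ± 0.17). Succinate dehydrogenase subunits Sdha (-2.10 ± 0.11) and Sdhb (-3.47 ± 0.17), with malate dehydrogenase Mdh2 (-2.80 ± 0.14), represent the cycle. Of the mitochondrially encoded transcripts, mt-Co1 had 24088, 27407, 21439 and 24489 TPM in WAT, against 58590, 73573, 72057 and 71270 TPM in muscle (-2.94 ± 0.13, adjusted p 1.7e-09). The summed TPM of the OXPHOS list was 13984 to 19860 in WAT and 41682 to 49035 in muscle.

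Outside that list stand the tissue-specific isoform pairs of cytochrome c oxidase and the adenine nucleotide translocator. Of their general forms, Cox6a1, Cox8a and Slc25a5 were higher in WAT and Cox7a2 was lower. Cox6a2 and Cox8b, the striated-muscle forms, were lower (-12.29 ± 0.38 and -7.82 ± 0.21), whereas Cox6a1 had 472, 299, 486 and 435 TPM in WAT, against 60.3, 44.0, 47.3 and 53.2 TPM in muscle (1.59 ± 0.19, adjusted p 9.76e-06), and Cox8a was also higher (1.37 ± 0.16). Cox7a1 took 2.80% to 6.41% of its pair in WAT and 77.4% to 79.6% in muscle, and both it (-8.49 ± 0.21) and Cox7a2 (-2.09 ± 0.14) were lower in WAT. The translocator gene Slc25a4 had 157, 137, 187 and 166 TPM in WAT, against 2305, 2136, 2207 and 2317 TPM in muscle (-5.24 ± 0.16), and Slc25a5 was slightly higher in WAT (0.60 ± 0.17). All 17 regulators of mitochondrial biogenesis and dynamics were called lower in WAT, 8 of them under all 3 scalings. Perm1, a muscle partner of the PGC-1 coactivators, had 0.426, 0.412, 0.414 and 0.363 TPM in WAT, against 209, 260, 201 and 258 TPM in muscle (-10.57 ± 0.18, adjusted p 2.67e-12). The coactivator gene Ppargc1a stood at 1.10, 1.17, 1.66 and 1.77 TPM in WAT, against 39.3, 105, 41.6 and 94.2 TPM in muscle (-6.38 ± 0.35). The orphan receptors Esrrg (-8.71 ± 0.28) and Esrrb (-9.01 ± 0.28) and the fusion proteins Mfn1 (-3.79 ± 0.11) and Mfn2 (-2.45 ± 0.11) were lower too.

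High-energy phosphate handling split between muscle and general isoforms. Of 15 phosphagen and purine cycle genes, 14 were tested, 5 called higher and 8 lower in WAT (5 and 7 under all 3 scalings). The mitochondrial creatine kinase Ckmt2 had 0.790, 0.464, 1.31 and 0.928 TPM in WAT, against 2744, 2718, 2719 and 3028 TPM in muscle (-13.09 ± 0.26, adjusted p 2.95e-12), and AMP deaminase Ampd1 (-11.98 ± 0.27), adenylate kinase Ak1 (-7.13 ± 0.20) and Adssl1 (-7.91 ± 0.34) were also lower. The general forms Ampd2 (2.14 ± 0.30) and Adss (1.5 ± 0.13), the brain-type creatine kinase Ckb (1.26 ± 0.30) and Gamt, which makes creatine (3.33 ± 0.25), were higher in WAT. Of 8 genes for the subunits of the energy sensor AMPK and an upstream kinase, 3 were called higher and 4 lower in WAT, 3 and 1 under all 3 scalings. For its catalytic subunit, Prkaa1 made up 88.1% to 91.5% of the pair in WAT and 14% to 17.2% in muscle, with Prkaa1 higher (1.17 ± 0.11) and Prkaa2 lower (-4.51 ± 0.17) in WAT. The elongation factor eEF1A did so too, Eef1a2 holding at most 0.0120% of the pair in WAT and 53.9% to 58.8% in muscle.

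Fatty acid synthesis genes varied within WAT, with summed TPM of 7057 to 18995 in WAT and 168 to 248 in muscle. Of 19 genes, 18 were tested, 14 called higher and 3 lower in WAT (median 2.60), and 14 and 0 under all 3 scalings. Fasn, the fatty acid synthase, had 86.5, 539, 922 and 1046 TPM in WAT, against 0.566, 1.76, 3.70 and 2.28 TPM in muscle (6.85 ± 0.88, adjusted p 7.05e-05). Acly, which makes cytosolic acetyl-CoA, had 54.5, 178, 290 and 278 TPM in WAT, against 4.22, 5.19, 4.75 and 4.97 TPM in muscle (3.98 ± 0.48, adjusted p 3.3e-05). The elongase Elovl6, named like Acly after its values were seen, had 3.05, 14.7, 17.8 and 16.5 TPM in WAT, against 0.139, 0.231, 0.564 and 0.306 TPM in muscle (4.21 ± 0.59). In each, WAT replicate 1 was the lowest WAT library, and muscle replicate 1 the lowest muscle library, yet the tissues did not overlap. The desaturase Scd1 showed the same order of replicate 1, with 5766, 12220, 13070 and 15132 TPM in WAT, against 17.8, 45.7, 49.8 and 36.6 TPM in muscle (6.83 ± 0.42, adjusted p 8.63e-08). Adipocyte markers differed in their order: Adipoq and the summed TPM of the list (71579, against 56988 to 66710 in the other libraries) were highest in replicate 1, Plin1 was lower there than in replicates 3 and 4, and Car3 was lowest there. The part of adipocyte content in the lipogenic values was not tested. The lipogenic regulator Thrsp (4.81 ± 0.35), the citrate carrier Slc25a1 (5.24 ± 0.36), malic enzyme Me1 (1.80 ± 0.29), Fads1 (2.68 ± 0.21), Elovl5 (1.52 ± 0.12) and Acaca (3.25 ± 0.25) were also called higher in WAT. Acetyl-CoA carboxylase changed its form: Acaca took 60.9% to 88.3% of the pair in WAT and 18.2% to 33.9% in muscle, where Acacb, whose product restrains fatty acid entry into mitochondria, led. Acacb was called lower with TMM (-1.02 ± 0.42, adjusted p 0.0475), as were the regulators Mlxipl (-1.02 ± 0.28) and Mid1ip1 (-1.27 ± 0.24), but the TPM of the tissues overlapped for each of these 3 and their direction flipped with TPM.

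**Figure D3:**
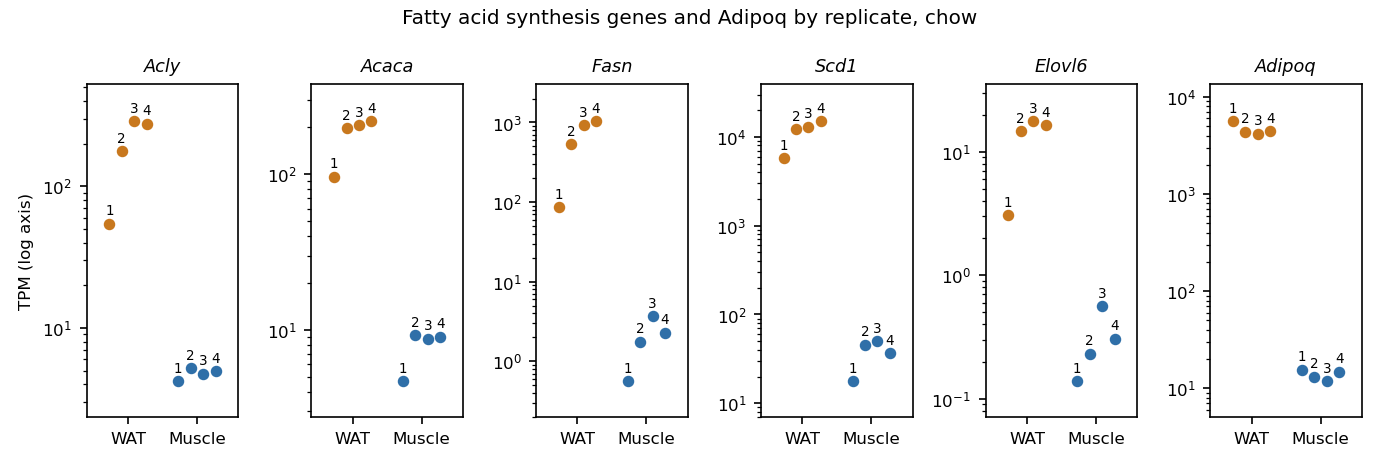
TPM (log axis) of 5 fatty acid synthesis genes and Adipoq in each WAT library (left, orange) and each muscle library (right, blue), numbered by replicate. Replicate 1 is lowest for Fasn in both tissues, at 86.5 TPM in WAT and 0.566 TPM in muscle, whereas for Adipoq it is highest, at 5661 TPM in WAT and 15.6 TPM in muscle.

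Of 27 lipolysis and lipid droplet genes, 25 were tested, 19 called higher in WAT (16 by at least 4-fold) and 6 lower (median 2.47), and 19 and 2 of these held under all 3 scalings. Plin1, which coats the droplet and gates lipases, had 1346, 1187, 1790 and 1802 TPM in WAT, against 2.35, 4.76, 3.67 and 3.63 TPM in muscle (7.22 ± 0.22, adjusted p 5.47e-11). Cidec had 3778, 3205, 3450 and 3604 TPM in WAT, against 5.66, 6.27, 7.51 and 4.34 TPM in muscle (7.61 ± 0.21, adjusted p 2.88e-11). Caveolin 1 (Cav1, 3.36 ± 0.16), Plin4 (3.0 ± 0.15) and the phosphodiesterase Pde3b, through which insulin restrains lipolysis (5.83 ± 0.23), followed. Muscle had droplet proteins of its own: Fitm1 stood at 0.191, 0.315, 0.184 and 0.225 TPM in WAT, against 147, 137, 183 and 169 TPM in muscle (-10.69 ± 0.24, adjusted p 6.46e-12), and Plin5, which links droplets to mitochondria, was also lower in WAT (-4.54 ± 0.26). Cidea was called lower in WAT with TMM (-1.91 ± 0.38), with overlapping TPM, and Plin3 (-1.15 ± 0.17) and Fitm2 (-0.60 ± 0.12) were called lower with a direction that flipped under another scaling. Of 14 triglyceride synthesis genes, 8 were called higher and 2 lower in WAT, 8 and 0 under all 3 scalings; Dgat2, which adds the last acyl chain, had 379, 781, 1108 and 1193 TPM in WAT, against 100, 88.3, 83.2 and 73.8 TPM in muscle (1.87 ± 0.30), Dgat1 gave 3.63 ± 0.24 and glycerol phosphate dehydrogenase Gpd1 2.52 ± 0.21. Among 7 tested genes of glycerol supply, 6 were higher in WAT: Pck1 had 2288, 1977, 1716 and 2040 TPM in WAT, against 4.54, 7.03, 5.61 and 5.40 TPM in muscle (7.04 ± 0.18, adjusted p 1.27e-11), pyruvate carboxylase Pcx gave 3.91 ± 0.23 and the glycerol channel Aqp7 3.04 ± 0.19, and the oxoglutarate carrier Slc25a11 was the member lower in WAT (-3.48 ± 0.13).

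Fatty acid binding and oxidation also showed different isoforms. Of 15 uptake genes, 9 were called higher and 4 lower in WAT, 9 and 4 of which held under all 3 scalings. Fabp3, the heart-type binding protein, had 1.43, 2.16, 3.43 and 3.08 TPM in WAT, against 5031, 3516, 3478 and 3584 TPM in muscle (-12.05 ± 0.30, adjusted p 1.17e-11). Fabp4, the adipocyte form, had 27016, 21446, 20088 and 19433 TPM in WAT, against 574, 538, 431 and 438 TPM in muscle (4.02 ± 0.18, adjusted p 1.34e-09). Fabp4 was thus 98.5% to 99.1% of the binding protein TPM in WAT, and still 10.2% to 13.2% in muscle, where Fabp3 took 86.4% to 89.5%. Lipoprotein lipase (Lpl), which frees fatty acids from blood lipoproteins, and the fatty acid transporter Cd36 were nearer to even (0.97 ± 0.17 and 1.38 ± 0.12), with Fabp5 at 2.32 ± 0.14; Vldlr (-2.36 ± 0.18) and Acsl3 (-2.02 ± 0.18) were lower in WAT, and Acsl6 had 0.163 TPM in 1 WAT library and 0 in the others, against 19.1, 20.2, 19.9 and 18.8 TPM in muscle. Of 25 oxidation genes, 2 were called higher and 23 lower in WAT (median -2.20), 1 and 15 under all 3 scalings. Cpt1b, which admits fatty acids into muscle mitochondria, had 1.87, 1.91, 2.02 and 2.52 TPM in WAT, against 207, 211, 191 and 190 TPM in muscle (-8.12 ± 0.16, adjusted p 2.95e-12), while Cpt1a was higher (2.01 ± 0.16) and made up 94.0% to 96.3% of their sum in WAT but 1.45% to 2.32% in muscle. Cpt1c, a low-level form, was the other member called higher (1.70 ± 0.56). The beta-oxidation enzymes Hadhb (-3.1 ± 0.15), Acadvl (-3.02 ± 0.14), Acadl (-2.50 ± 0.14) and Acadm (-1.96 ± 0.14) were all lower in WAT.

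Of 18 tested genes of branched-chain amino acid breakdown, 10 were called higher and 7 lower in WAT (median 0.35), 10 and 1 under all 3 scalings; Bckdk, the kinase that switches the pathway off, had 45.9, 43.2, 57.9 and 54.8 TPM in WAT, against 80.9, 82.8, 75.6 and 80.1 TPM in muscle (-2.14 ± 0.13), and Aldh6a1 (0.97 ± 0.11) and Mccc1 (0.89 ± 0.12) were higher in WAT. Of 16 cholesterol genes, 12 were called higher and 1 lower in WAT (12 and 0 under all 3 scalings), led by the exporter Abca1 (3.72 ± 0.16) and the HDL receptor Scarb1 (2.51 ± 0.23). Among uncoupling proteins, Ucp2 was higher in WAT (2.34 ± 0.21) and Ucp3, the muscle form, lower (-2.71 ± 0.27), while Ucp1, which marks brown fat, was 0.202 TPM in WAT replicate 1 and listed at 0 in the other 7 libraries. Of 15 brown and beige adipocyte markers, 9 were tested; Ebf2 (2.18 ± 0.14) and Kcnk3 (4.12 ± 0.44) were called higher in WAT and 7 lower, among them Cox8b, Cpt1b and Ppargc1a, which muscle also uses.

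Among secreted factors, adipokine genes were higher in WAT, whereas genes listed as myokines went both ways. Of 14 adipokine genes, 12 were tested and all were called higher in WAT, 11 by at least 4-fold (median 5.88), all under the 3 scalings. Lep, the satiety hormone, had 507, 669, 474 and 450 TPM in WAT, against 1.44, 1.35, 1.02 and 0.644 TPM in muscle (7.41 ± 0.25, adjusted p 1.33e-10). Adipsin (Cfd) had 10382, 2855, 11720 and 7481 TPM in WAT, against 67.0, 49.7, 71.7 and 71.3 TPM in muscle (5.52 ± 0.45, adjusted p 1.22e-06), and WAT replicate 2 was the lowest of its group. Retn (7.16 ± 0.28), Nnat (6.5 ± 0.51), Serpina3c (6.25 ± 0.16) and chemerin (Rarres2, 3.54 ± 0.13) completed the leading members. Of 16 genes listed as myokines, 14 were tested, 4 called higher and 8 lower in WAT, 4 and 3 under all 3 scalings. Over all genes tested, 40.0% were called higher and 36.1% lower. The summed TPM of the myokine list was larger in WAT, at 2236 to 2581 against 548 to 695 in muscle. Fndc5, the irisin precursor, had 0.620, 0.231, 0.872 and 1.25 TPM in WAT, against 153, 136, 156 and 135 TPM in muscle (-9.10 ± 0.32, adjusted p 2.33e-10), and osteocrin (Ostn, -8.89 ± 0.30) and the synapse kinase Musk (-7.15 ± 0.28) were lower too. Those higher in WAT were Igf1 (3.41 ± 0.23), cathepsin B (Ctsb, 1.94 ± 0.12), apelin (Apln, 1.68 ± 0.39) and decorin (Dcn, 1.12 ± 0.18).

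The stroma of WAT was richer in progenitor, basement membrane and mesothelial transcripts. Of 18 fibroblast and adipose progenitor markers, 15 were called higher and 0 lower in WAT (median 1.14), all 15 under the 3 scalings. Gelsolin (Gsn), an actin-severing protein, had 8500, 5985, 6971 and 6799 TPM in WAT, against 180, 280, 212 and 299 TPM in muscle (3.30 ± 0.21, adjusted p 3.29e-08); Dpp4, a marker of early progenitors, had 16.0, 29.9, 15.7 and 15.6 TPM in WAT, against 0.448, 0.705, 0.408 and 0.743 TPM in muscle (3.60 ± 0.27). Smpd3 (4.20 ± 0.28) and Cd248 (1.98 ± 0.19) were higher too. Of 22 basement membrane and collagen VI genes, 21 were called higher (16 by at least 4-fold, median 2.66) and 0 lower. Nidogen 1 (Nid1) had 273, 460, 283 and 350 TPM in WAT, against 7.43, 16.7, 12.9 and 14.8 TPM in muscle (3.29 ± 0.23, adjusted p 1.2e-07), and Col15a1 (3.95 ± 0.38), Col18a1 (3.62 ± 0.15), Col6a1 (3.02 ± 0.19), the laminins Lama4 (2.99 ± 0.21) and Lamb1 (2.63 ± 0.17), and Col4a1 (2.33 ± 0.21) went with it. Of 22 matrix glycoproteins and proteoglycans 17 were higher and 3 lower in WAT, and of 22 matrix processing genes 16 and 4; 17 and 16 higher calls and 0 lower calls held under all 3 scalings. Of 10 tested fibrillar collagen genes, 6 were higher and 2 lower in WAT: Col5a3 (4.75 ± 0.38) and Col3a1 (2.62 ± 0.31) against Col11a1 (-7.23 ± 0.53) and the tendon-associated Col12a1 (-1.82 ± 0.36).

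Mesothelium, the lining of the body cavities, left its transcripts in WAT: all 12 markers were called at least 4-fold higher. Of these, 5 were at 0 in every muscle library, so they passed the count filter through WAT alone and could only be higher. Upk3b had 50.8, 88.3, 93.8 and 58.3 TPM in WAT and was at 0 in all 4 muscle libraries, at least 1070-fold higher against a floor of 3 counts over the group. Mesothelin (Msln) had 62.0, 91.8, 55.6 and 41.3 TPM in WAT, against 0.146, 0.05, 0.0806 and 0 TPM in muscle (8.49 ± 0.44, adjusted p 8.78e-09). The summed TPM of the list was 293 to 482 in WAT and 1.94 to 2.55 in muscle. Tendon and connective tissue markers ran the other way: all 10 were called lower in WAT (median -5.95), 6 under all 3 scalings. Of these, 2 were at 0 in every WAT library and could only be lower there. Thrombospondin 4 (Thbs4) had 0.191, 0.274, 0 and 0.112 TPM in WAT, against 63.0, 74.6, 47.5 and 76.2 TPM in muscle (-10.12 ± 0.33, adjusted p 1.18e-10), and chondroadherin (Chad) gave -6.12 ± 0.18. Of 8 tested Schwann cell and nerve markers, 2 were called higher and 5 lower in WAT, 2 and 1 under all 3 scalings. Pmp22 (0.73 ± 0.17) and Mpzl2 (2.40 ± 0.47) were higher.

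Of 14 endothelial markers, 7 were called higher and 1 lower in WAT with TMM (median 0.36, against 0.095 over all genes), but 14 were called higher with library totals and 14 with TPM. Their summed TPM was 658 to 935 in WAT and 199 to 242 in muscle. Pecam1, on all endothelium, had 131, 137, 101 and 134 TPM in WAT, against 34.9, 39.6, 37.0 and 35.5 TPM in muscle (0.34 ± 0.12, adjusted p 0.0181); the tight-junction gene Cldn5 (2.49 ± 0.22), Robo4 (1.68 ± 0.21), Cdh5 (0.75 ± 0.17) and Esam (0.55 ± 0.13) were higher, and Flt1 was called lower (-0.45 ± 0.14) with a direction that flipped under library totals. Of 13 mural cell markers, 2 were higher and 5 lower in WAT, 2 and 2 under all 3 scalings: Mcam (3.46 ± 0.12) and Cspg4 (1.37 ± 0.52) against Abcc9 (-2.53 ± 0.21) and desmin (Des, -7.83 ± 0.21), which muscle fibres also make. Whether muscle fibres contributed to Abcc9 was not tested. Lymphatic markers differed between WAT libraries: Ccl21a had 153, 4.83, 72.9 and 151 TPM in WAT, against 9.11, 12.9, 10.2 and 11.8 TPM in muscle and was not called (1.78 ± 0.81, adjusted p 0.0699). Mmrn1 followed with 8.67, 0.905, 4.23 and 14.2 TPM in WAT, so WAT replicate 2 lay within or below the muscle range for both. Lyve1 (1.92 ± 0.17) and Pdpn (2.03 ± 0.20), which macrophages and mesothelium also make, were higher in WAT. Prox1, a transcription factor on the lymphatic list, was lower (-4.06 ± 0.37), and which cells of each tissue expressed it was not tested. The summed TPM of the list was 92.5 to 232 in WAT and 18.4 to 25.8 in muscle.

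**Figure D4:**
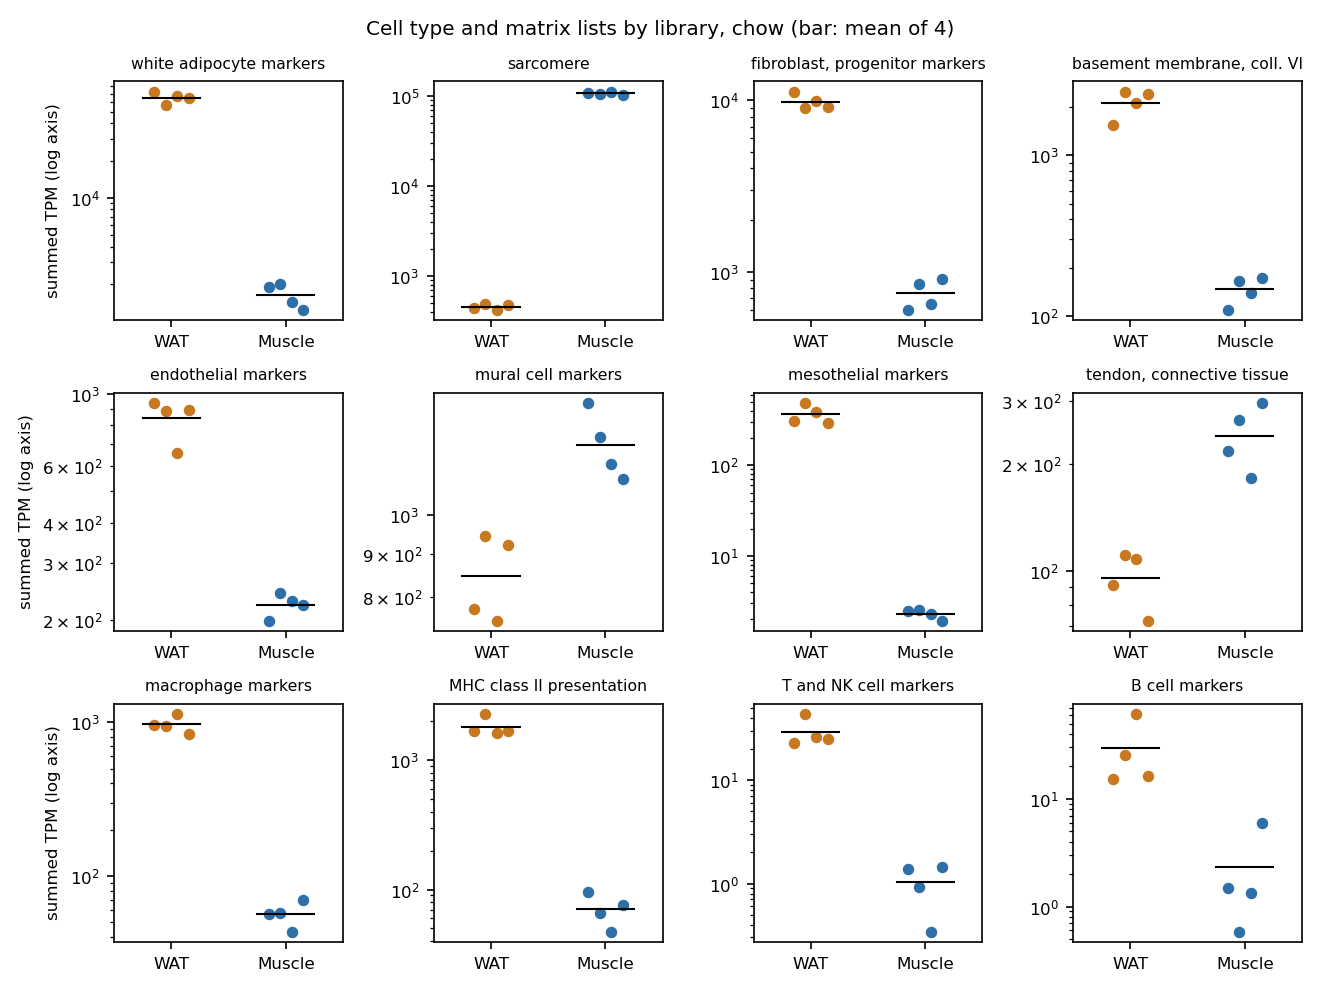
Summed TPM of 12 cell type and matrix lists (log axes with their own ranges) in the 4 WAT (left, orange) and 4 muscle (right, blue) libraries, with the mean as a bar. Mesothelial sums lie at 293 to 482 in WAT and 1.94 to 2.55 in muscle. Mural, tendon and sarcomere sums are lower in WAT, and the other lists are higher. The mural sum includes desmin, which muscle fibres also make, and the median log2 fold change of that list is -0.135.

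Most immune lists held more genes called higher than lower in WAT. Of 13 tested interferon-stimulated genes 7 were called higher and 0 lower (median 0.90), and of 9 tested cytokines 6 and 2. Of 18 macrophage markers, 17 were called higher (16 by at least 4-fold, median 2.74) and 0 lower, and the 17 held under all 3 scalings. The complement component gene C1qb had 222, 151, 224 and 158 TPM in WAT, against 12.3, 11.9, 10.8 and 16.3 TPM in muscle (2.44 ± 0.19, adjusted p 1.99e-07), and the growth factor receptor Csf1r had 52.7, 71.5, 69.6 and 59.6 TPM in WAT, against 2.08, 3.70, 2.50 and 3.27 TPM in muscle (2.96 ± 0.16, adjusted p 8.26e-09). Markers of resident macrophages gave similar values, Folr2 at 3.17 ± 0.21, Mertk at 3.1 ± 0.14 and Mrc1 at 2.77 ± 0.18. The summed TPM of the list was 838 to 1125 in WAT and 43.6 to 70.2 in muscle. Of 14 genes listed for lipid-associated macrophages, 13 were tested, 10 called higher and 1 lower in WAT. Lgals3 (3.38 ± 0.26) and Mmp12 are more typical of macrophages, whereas Lpl, Fabp5 and Plin2 (1.72 ± 0.14) are also made by adipocytes. Mmp12 had 17.2, 9.23, 8.77 and 25.3 TPM in WAT and 0.0677 TPM in 1 muscle library, with 0 in the others. Osteopontin (Spp1) was the member called lower, with overlapping values of 2.52, 1.48, 13.3 and 2.54 TPM in WAT, against 13.6, 12.9, 7.04 and 11.3 TPM in muscle (-2.60 ± 0.61).

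All 8 MHC class II genes (median 3.15), all 10 MHC class I genes (median 2.33) and all 17 complement genes (median 3.25) were called higher in WAT under all 3 scalings. The invariant chain Cd74 had 765, 1074, 691 and 775 TPM in WAT, against 34.1, 29.8, 20.4 and 29.8 TPM in muscle (3.41 ± 0.18, adjusted p 7.92e-09), and beta-2 microglobulin (B2m) had 3889, 4086, 3186 and 3090 TPM in WAT, against 180, 176, 154 and 183 TPM in muscle (2.91 ± 0.14, adjusted p 2.21e-09). H2-Aa (3.51 ± 0.19) and H2-K1 (2.88 ± 0.12) belong to families of near-identical genes, so reads may be split among them. Of complement, C3 had 620, 610, 650 and 535 TPM in WAT, against 11.5, 8.64, 7.44 and 8.34 TPM in muscle (4.74 ± 0.16, adjusted p 1.58e-10), and C2 (6.51 ± 0.20), C4b (5.55 ± 0.33) and Cfb (5.15 ± 0.19) differed more than the C1q genes. Of 23 chemokine and receptor genes, 17 were tested, 13 higher and 3 lower in WAT, 13 and 1 under all 3 scalings: Ccl6 (3.26 ± 0.18) and the interferon-induced Cxcl9 (5.06 ± 0.37) against Cxcl14 (-3.59 ± 0.20).

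Lymphocyte markers were low in both tissues. Of 10 measured B cell genes, 4 were tested, and of 15 T and NK cell genes, 4. All 8 were called higher in WAT, 2 and 3 under all 3 scalings. The count filter can be passed through 1 tissue alone. Members near 0 in muscle were thus tested because of their WAT counts, and their direction was close to fixed by the filter. Jchain, of antibody-secreting cells, had 5.72, 16.0, 41.5 and 10.1 TPM in WAT, against 0.113, 0, 0 and 0.351 TPM in muscle (5.73 ± 0.95, adjusted p 0.000245). The interleukin 7 receptor gene Il7r had 1.76, 3.12, 1.64 and 2.36 TPM in WAT, against 0.0416, 0.0870, 0.0903 and 0.0745 TPM in muscle (3.54 ± 0.41, adjusted p 8.43e-06). The other members did not reach the count filter and were not tested on chow. Of 6 tested dendritic cell markers, 5 were higher in WAT, led by Cd209a (2.26 ± 0.27), and of 6 tested mast cell and eosinophil markers, 5, led by Kit (3.34 ± 0.35). Of 10 neutrophil markers 2 were tested and 0 called. S100a8 had 21.2, 7.22, 4.27 and 8.95 TPM in WAT, against 11.9, 1.01, 1.63 and 1.53 TPM in muscle (-0.06 ± 0.80, adjusted p 0.949), highest in replicate 1 of each tissue. Without muscle replicate 1 its log2 fold change was 1.45 (edgeR's adjusted p 0.0789). The summed TPM of the neutrophil list was 56.0 in WAT replicate 1 and 10.6 to 19.6 in the other WAT libraries, against 41.7 in muscle replicate 1 and 2.24 to 5.10 in the other muscle libraries. Red blood cell genes, haemoglobins among them, also had a larger summed TPM in WAT, 2190 to 4830 against 264 to 857 in muscle. Across libraries their order did not follow the macrophage list. Muscle replicate 3 had the highest red cell sum (857) and the lowest macrophage sum (43.6). In WAT, replicate 1 led for red cells (4830), as it did for neutrophils, and replicate 3 for macrophages (1125). Of 6 tested red cell genes 4 were called higher in WAT, but 1 without WAT replicate 1, 1 without muscle replicate 4 and 2 without muscle replicate 2. The part of blood content in the immune counts was not tested.

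The same tissue contrast was read in the 4 WAT and 4 muscle libraries of CTRL mice on HSD, which share no library with the chow groups. There 12610 genes were tested, with 9749 (77.3%) called, 5045 (40.0%) higher in WAT and 4704 (37.3%) lower. Of the 9520 chow calls also tested on HSD, 8496 (89.2%) were called in the same direction, 17 in the opposite one and 1007 were not called. Several stromal and immune lists gave other counts on HSD. Lymphatic markers had 2 called higher and 3 lower in WAT on HSD (median -1.11), against 3 and 1 on chow (median 1.71), and mural markers 2 and 10 on HSD, against 2 and 5 on chow. Endothelial markers had 4 higher and 2 lower on HSD, against 7 and 1 on chow, and mast cell and eosinophil markers 2 and 0 on HSD, against 5 and 0 on chow. Fibrillar collagens had a median of 0.09 on HSD, against 1.29 on chow. The differences between list counts were not tested as such. Member by member, the interaction defined next was called for 0 of 14 endothelial, 0 of 6 mast cell and eosinophil and 0 of 11 fibrillar collagen genes. It was called for 1 of 7 lymphatic genes (Prox1) and 3 of 13 mural genes (Abcc9, Acta2 and Myh11), all negative. A gene not called is not thereby shown to be equal on both diets. The tissue by diet interaction, which is the log2 fold change of WAT over muscle on HSD minus that on chow, was called for 576 of 13379 genes (4.31%), 312 positive (2.33%) and 264 negative (1.97%); this number ranged from 135 without muscle HSD replicate 2 to 973 without WAT chow replicate 3, and 3032 genes had an unadjusted p under 0.05. In simulated counts for this interaction, over 13379 genes, 36% of 2-fold and 88% of 4-fold interactions were recovered and 9.49% of calls were false. Every simulated group was drawn from WAT chow levels and spread, without a tissue difference, so these rates do not describe the real interaction.

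A positive interaction means that the log2 fold change of WAT over muscle was higher on HSD than on chow. The interaction was positive for 30 of 67 nuclear OXPHOS subunits and negative for 0 (median 0.75, against -0.03 over all genes tested), positive for 8 of 13 pyruvate dehydrogenase genes and negative for 0 (median 0.64), and positive for 9 and negative for 1 of 21 glycolysis genes (median 0.60). Other mitochondrial lists held fewer calls: the interaction was positive for 3 of 16 TCA cycle genes, 3 of 13 mitochondrially encoded subunits, 3 of 25 fatty acid oxidation genes and 0 of 17 biogenesis regulators (median 0.02), and negative for 0 in each. Leaving out each library in turn gave 5 OXPHOS subunits without muscle HSD replicate 2, 12 without WAT HSD replicate 1 and 52 without WAT chow replicate 3, and numbers between these without the others. For glycolysis the number lay between 2 and 10, and for pyruvate dehydrogenase between 4 and 7. Libraries also differed in how their log2 levels trended with log2 gene length. On chow the slopes against the group mean ran from -0.08 to 0.105 in WAT and from -0.124 to 0.067 in muscle. The interaction was not refitted with such trends removed, and their part in it was not tested. Pdhb had 279, 303, 318 and 249 TPM in WAT on HSD, against 131, 152, 214 and 164 TPM in WAT on chow, and 318, 298, 337 and 320 TPM in muscle on HSD, against 366, 348, 339 and 367 TPM in muscle on chow (interaction 1.23 ± 0.19, adjusted p 0.00416). Neither the WAT nor the muscle groups overlapped between diets, WAT being higher and muscle lower on HSD. Cox8b followed, with 77.6, 63.0, 79.6 and 74.9 TPM in WAT on HSD, against 41.4, 34.1, 27.8 and 42.4 TPM in WAT on chow (1.59 ± 0.23, adjusted p 0.00356). Mpc1 (1.04 ± 0.17), Gapdh (0.97 ± 0.21), Cox6c (0.90 ± 0.19) and Pgam1 (0.90 ± 0.16) were also positive, as was malic enzyme Me1 (1.36 ± 0.33).

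For adipocyte and macrophage markers the called interactions were negative. Of 13 white adipocyte markers 3 had a negative interaction (Plin1, Cidec and Lep) and 0 a positive one, and of 18 macrophage markers 4 (Mrc1, Cd163, Mertk and Clec10a) and 0. The macrophage number lay between 1 and 5 when each library was left out in turn, being 1 without WAT HSD replicate 1 or without muscle HSD replicate 2, 3 or 4. Lep had 205, 316, 200 and 263 TPM in WAT on HSD, against 507, 669, 474 and 450 TPM in WAT on chow, and 0.811, 2.71, 1.62 and 3.47 TPM in muscle on HSD, against 1.44, 1.35, 1.02 and 0.644 TPM in muscle on chow (-1.79 ± 0.44, adjusted p 0.0346). Plin1 had 8.06, 10.2, 10.9 and 10.9 TPM in muscle on HSD, against 2.35, 4.76, 3.67 and 3.63 TPM in muscle on chow (-1.38 ± 0.26, adjusted p 0.0145), so for Plin1 the muscle groups separated while WAT levels overlapped, at 1263, 1513, 1418 and 1202 TPM on HSD and 1346, 1187, 1790 and 1802 TPM on chow. Levels of adipocyte genes in muscle are the trace described above, and how much adipose tissue each muscle sample held was not tested.

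The 5 genes with the smallest interaction p were Npr3, Tecr, Lrpap1, Lpcat1 and Phf8. Npr3, the receptor that clears natriuretic peptides, had 143, 190, 143 and 141 TPM in WAT on HSD, against 290, 412, 371 and 364 TPM in WAT on chow (-1.56 ± 0.19, adjusted p 0.00154). Tecr, a reductase of very-long-chain fatty acid synthesis, had 403, 514, 447 and 432 TPM in WAT on HSD, against 201, 203, 224 and 220 TPM in WAT on chow (1.20 ± 0.15, adjusted p 0.00154). Lrpap1, a chaperone of LDL receptor family proteins, was also higher in WAT on HSD, with 299, 325, 252 and 328 TPM on HSD, against 138, 161, 148 and 170 TPM on chow (1.05 ± 0.14, adjusted p 0.00269). The histone demethylase Phf8 was lower in WAT on HSD, with 10.5, 14, 12.5 and 15.9 TPM, against 26.8, 42.4, 20.2 and 24.0 TPM on chow (-1.51 ± 0.21, adjusted p 0.00269). Lpcat1, which remodels lysophosphatidylcholine, was listed at 1.15, 0.726, 1.08 and 1.24 TPM in muscle on HSD but at 0 in all 4 muscle libraries on chow, with a WAT range of 1.63 to 4.90 TPM over both diets.

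**Figure D5:**
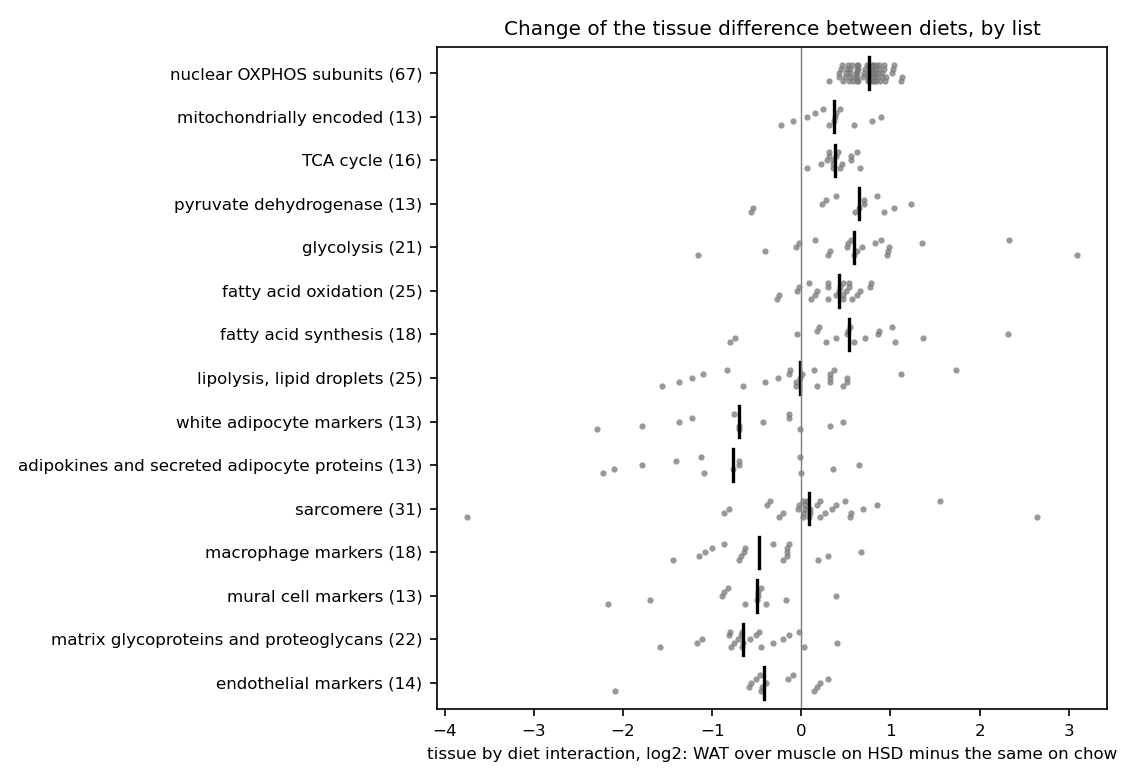
Tissue by diet interaction (log2 fold change of WAT over muscle on HSD minus that on chow; x axis) of each tested gene in 15 lists, with the number tested in brackets and the list's median as a bar. Every OXPHOS subunit lies above 0 with a median of 0.75, while adipokine, macrophage, mural and matrix lists have medians below 0.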

How the data were processed

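RNA from WAT and muscle was sequenced by the authors. Gene-level estimated counts and TPM were deposited by the authors, made with kallisto against GRCm38 per the submitters' processing notes. No version of either is recorded there. The deposited TPM of the genes listed summed to 81.6% to 89.5% of their nominal total per library. Groups came from the labels for tissue, genotype and diet. The members, gene lists and tests were chosen with earlier results of these data known.

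Estimated counts were rounded to whole numbers. Genes passing edgeR's filterByExpr (minimum count 10) were TMM-scaled and tested by edgeR's quasi-likelihood test (edgeR 4.0.16, R 4.3.3) with Benjamini-Hochberg adjustment at 0.05, in the 8 chow libraries, the 8 HSD libraries, and all 16 for the interaction. A 4-fold rule used a log2 change of 2. Alternatives used DESeq2 1.42.0 and limma 3.58.1 on log2(TPM + 1) over genes of at least 1 TPM in 4 libraries, or a pseudocount of 0.1. Pseudoalignment can split reads among near-identical genes (Myh1, Myh2 and Myh4, Acta1 and Actc1, haemoglobin and H2 genes). At 6669444 counts or more per library, p-values cover the spread between libraries. Replicates differed by more than counting noise, so each was kept as a sample.

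Of 904 listed genes, 894 were measured and the others were not analysed here. Some genes are not reported here. The text names the 10 largest changes per direction with at least 100 TPM in the higher tissue, and in each list up to 4 members of highest TPM, up to 4 of smallest p and every member called against its list's majority, plus isoenzyme families and the 5 smallest interaction p. Acly, Elovl6, Insr, Myl1, the promoter-match genes, the myosins and the members listed for interactions were chosen after their values were seen. On simulated counts for WAT against muscle on chow (12871 genes), 79% of 2-fold and 98% of 4-fold changes were recovered and 4.32% of calls were false. Both simulated tissues were drawn from WAT levels and spread, with 100 genes changed at each fold. They lacked the unequal composition of the real tissues, so these rates do not describe the real contrast.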

Additional observations from a re-analysis of the deposited data

Results flagged for a closer look

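In 544 groups of 4 values (named genes of at least 1 TPM and list sums, in each tissue on chow), 40 (7.35%) held 1 library far from the other 3 by Dixon's criterion, where chance gives about 1 in 20. No cause was tested.

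In WAT, replicate 1 was highest for C4b (715 TPM), Ebf2 (17.6 TPM) and the red blood cell sum (4830 TPM), and lowest for the sums of fibrillar collagens (675 TPM) and lipid-associated macrophage genes (4856 TPM). WAT replicate 2 was highest for Col12a1 (3.75 TPM), Dpp4 (29.9 TPM), H2-Aa (645 TPM), the T and NK cell sum (43.7 TPM) and the MHC class II sum (2266 TPM), and lowest for the hepatocyte sum (2175 TPM). WAT replicate 3 was highest for Ppp1r3c (27.3 TPM), Spp1 (13.3 TPM) and the sum of glucose transporters and hexokinases (212 TPM), and lowest for Pecam1 (101 TPM).

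In muscle, replicate 1 was lowest for Abca1 (1.14 TPM), Acaca (4.68 TPM), Apln (0.681 TPM), Col11a1 (0.704 TPM), Gys1 (175 TPM), Prkaa1 (3.93 TPM) and mt-Co1 (58590 TPM). It was highest for Atp2a1 (3045 TPM), Cox7a2 (599 TPM), Fabp3 (5031 TPM), S100a8 (11.9 TPM) and the neutrophil sum (41.7 TPM). Muscle replicate 2 was highest for Pik3r1 (9.73 TPM) and the hepatocyte sum (93.3 TPM), and lowest for Slc25a11 (245 TPM). Muscle replicate 3 was highest for Acta1 (16551 TPM), Myl3 (4823 TPM) and Scarb1 (9.48 TPM), and lowest for Ugp2 (652 TPM). Muscle replicate 4 was highest for Ckmt2 (3028 TPM), Col12a1 (5.39 TPM), Fabp5 (24.4 TPM), the B cell sum (5.96 TPM) and the complement sum (204 TPM), and lowest for Art1 (112 TPM).

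Among the 247 named genes, some of them named for their interaction, 42 were called for a different tissue contrast on HSD and on chow (edgeR's interaction term, Benjamini-Hochberg adjusted), against 4.31% of all genes tested; the share among named genes supports nothing. Positive log2 interactions were measured for Cox8b (1.59), Me1 (1.36), Pgam2 (1.35), Pdhb (1.23), Tecr (1.20), Lrpap1 (1.05), Mpc1 (1.04), Gapdh (0.97), Pfkl (0.96), Cox6c (0.90), Pgam1 (0.90), Fabp5 (0.89), Aldoa (0.83), Cox8a (0.81), Cox7a2 (0.74), Ugp2 (0.73), Hk2 (0.70), Pdha1 (0.70), Pdk1 (0.70), Ldhb (0.63) and Slc2a4 (0.58). Negative ones were measured for Spp1 (-5.31), Prox1 (-3.63), Lep (-1.79), Prkar2b (-1.72), Npr3 (-1.56), Phf8 (-1.51), Clec10a (-1.44), Plin1 (-1.38), Abca1 (-1.30), Cidec (-1.23), Pfkfb3 (-1.16), Mertk (-1.15), Atp2a3 (-1.13), Serpina3c (-1.12), Col6a1 (-1.11), Plin4 (-1.11), Mrc1 (-1.08), Cd163 (-1.0), Grb14 (-0.91) and Abcc9 (-0.87). Lpcat1 also had one (-8.45), a fitted value that depends on the prior count because all muscle chow libraries were at 0.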

How the results depend on the processing

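On chow, scaling and unit moved the gene counts by more than leaving out a library did; the limma settings changed test and filter as well. Genes called higher in WAT numbered 8380 with library totals, 9215 with limma on log2(TPM + 1), 9160 with a pseudocount of 0.1 and 11116 with no filter; genes called lower numbered 2159, 1487, 1474 and 1663. At 4-fold the same settings gave 3783, 2940, 4541 and 2942 higher and 780, 508, 606 and 508 lower. List counts with library totals, then with TPM, were 4 and 1 lower for insulin signalling, 3 and 3 lower for glucose transporters, 13 and 14 higher for triglyceride synthesis, 5 and 3 lower for myokines (4 unfiltered), 14 and 14 higher for endothelium, 3 and 2 lower for mural cells, and 2 and 1 lower for Schwann cells (3 without WAT replicates 2 and 4). With TPM, 8 mitochondrial regulators, 15 oxidation genes, 1 gene of the AMPK list, 4 brown and beige and 6 tendon markers were lower and 16 branched-chain amino acid genes higher; lymphatic markers gave 5 higher with library totals. Without a filter, limma on TPM called 10 dendritic, 10 mast cell and 7 red cell markers higher and edgeR 9 mast cell and 2 red cell markers; DESeq2 called 8 mast cell markers, and a fit over all 32 WAT and muscle libraries 8 dendritic and 1 red cell markers.

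Leaving out 1 library gave 4978 to 5193 higher and 4531 to 4684 lower calls on chow, 1945 to 2091 and 1442 to 1497 at 4-fold, 4934 to 5034 and 4642 to 4783 on HSD, and 135 to 973 for the interaction. It gave 5 to 52 OXPHOS, 4 to 7 pyruvate dehydrogenase and 2 to 10 glycolysis genes with a positive interaction, 1 to 5 macrophage genes with a negative one, 2 to 5 lymphatic markers and 1 to 5 red cell markers. DESeq2 called 1240 interactions, with 61 OXPHOS subunits. The interaction list counts were followed after the data were seen.

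With the label number as a replicate block, the interaction gave 962 calls and 55 OXPHOS subunits, against 576 and 30 without it. Deviations of same-numbered WAT and muscle libraries correlated at 0.147, 0.157, 0.057 and 0.015, all positive. Those of differently numbered libraries lay between -0.102 and 0.067. The labels do not say whether a number marks 1 mouse. Libraries were treated as unpaired in the main tests, and whether they are paired was not settled.

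Of 4935 values of named genes under the alternatives, 4839 kept direction and side of the threshold and 43 reversed, in 10 genes. Log2 values that turned positive with library totals were 0.59 (Akt2), 0.4 (Fitm2), 0.54 (Flt1), 0.96 (Insr) and 0.93 (S100a8). With TPM plus 1, then plus 0.1, they were 0.61 and 0.64 (Acacb), 1.06 and 1.07 (Akt2), 0.82 and 0.83 (Fitm2), 0.92 and 0.96 (Flt1), 1.47 and 1.53 (Insr), 0.36 and 0.36 (Ldha), 0.1 and 0.11 (Mid1ip1), 0.65 and 0.67 (Mlxipl), 0.02 and 0.02 (Plin3), and 1.45 and 1.84 (S100a8). Insr, not called, ranged between -0.13 and 0.03 as each library was left out, and gave 0.01 without WAT replicate 3 and 0.03 without muscle replicate 2. S100a8, not called, ranged between -0.7 and 1.45, and gave 0.25 with the block, 1.11 with length trends removed, 0.24 without WAT replicates 2 and 4, 0.1 and 0.2 without WAT replicates 2 and 3, and 1.45 without muscle replicate 1. The cause was not tested; low-count markers are limited by depth.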

Other observations

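The liver-type cytochrome P450 Cyp2e1, which is also made by adipocytes, carried nearly all of the summed hepatocyte marker TPM in WAT, 2175 to 3752 against 26.5 to 93.3 in muscle. In muscle replicate 2, albumin (Alb) stood at 31.1 TPM and transthyretin (Ttr) at 6.5 TPM. The neutrophil gene S100a9 had 26.2, 0.824, 6.06 and 2.92 TPM in WAT, against 24, 0.923, 2.42 and 1.75 TPM in muscle, so replicate 1 was the highest library of each tissue, as for S100a8. The transferrin receptor gene Tfrc varied within muscle, where the lowest library stood at 7.58 TPM and the others at 41.5, 97.4 and 113 TPM. No relation among these values was tested.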
